A study of Mus musculus with 22 samples.

Results

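The 10 genes described here encode proteins of the lung's extracellular matrix other than collagens, and enzymes that build or crosslink it. They are the glycoproteins Fn1 (fibronectin), Tnc (tenascin C), Postn (periostin) and Spp1 (osteopontin), the elastic fibre proteins Eln (elastin) and Fbn1 (fibrillin 1), the crosslinking enzymes Lox, Loxl1 and Loxl2 (lysyl oxidase and its relatives), and Has2 (a hyaluronan synthase). The members were taken by gene symbol, all 10 were found among the 20938 genes of the expression table, and all 10 passed the filter on low values, which left 15682 genes for testing.

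RNA from whole lung was sequenced in 22 libraries from BALB/c mice, an inbred strain often used as a model of allergic airway inflammation. Every mouse, PBS controls included, received an intraperitoneal sensitization when 49 days old and a booster when 63 days old, with an agent that the labels do not name. Aerosols began at 70 days. The short protocol gave an aerosol of ovalbumin (OVA, 4 libraries), methacholine (MCh, 4 libraries) or phosphate-buffered saline (PBS, 3 libraries) on 3 consecutive days. The long protocol gave the same aerosols 3 times a week for 4 weeks, again with 4 OVA, 4 MCh and 3 PBS libraries. OVA is a protein allergen, MCh is a drug known to constrict airways, and PBS is the vehicle. Airway constriction itself is not measured in the tables used here. The titles disagree with the treatment text in places: they give 4 days for short MCh, and they call the PBS and MCh animals normal, while the treatment text describes all mice as sensitized. If the titles hold, OVA differs from MCh and PBS by sensitization as well as by aerosol, and these cannot be told apart. The series text also names trachea, whereas the sample labels give lung. Long OVA and long MCh libraries are called a to d because their columns could be tied to a group but not to a numbered animal.

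In the airway wall, matrix glycoproteins such as fibronectin, tenascin C and periostin are secreted into the space between cells, where they bind integrins and one another and change as tissue is injured or repaired. Elastin is laid down on fibrillin microfibrils, and lysyl oxidases join neighbouring elastin or collagen chains through modified lysines. Hyaluronan is a long sugar polymer made at the plasma membrane. It holds water in the matrix and binds receptors on leukocytes. Changes in these components are a known feature of airway remodelling in asthma.

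The tissue label was checked against marker lists. All 6 lung epithelium markers were present, while the 4 cartilage markers Acan, Col2a1, Matn1 and Cnmd summed to at most 0.697 FPKM in any library (FPKM, sequenced fragments scaled by transcript length and library depth). The values imply depths of 15.1 to 25.65 fragments for a 1 kilobase transcript at 1 FPKM. Of the libraries, 4 stood apart from their groups and had an array weight (a measure of how closely a library follows its group) under 0.25: short MCh libraries 1 and 4 and long MCh libraries a and c. No OVA or PBS library had so low a weight.

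After the short protocol, 6 of the 10 genes were higher in OVA than in PBS lungs and none was lower. Has2 and Spp1 had the largest fold changes of the 6, in an order that depends on the pseudocount, followed by Tnc and Fn1, and Loxl1 and Postn had the smallest. Eln, Fbn1, Lox and Loxl2 did not pass the test, and none of them had an unadjusted p under 0.05. Calls were made with limma on log2(FPKM + 0.5) at an adjusted p under 0.05 over all tested genes. By the same rule 12.4% of all tested genes were higher and 24.2% changed in either direction. The median log2 fold change of the 10 genes was 0.51, beside −0.06 over all tested genes. In RNA from whole tissue, a lower or higher level in each cell and a change in the number of cells that make the RNA cannot be told apart.

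**Figure D1:**
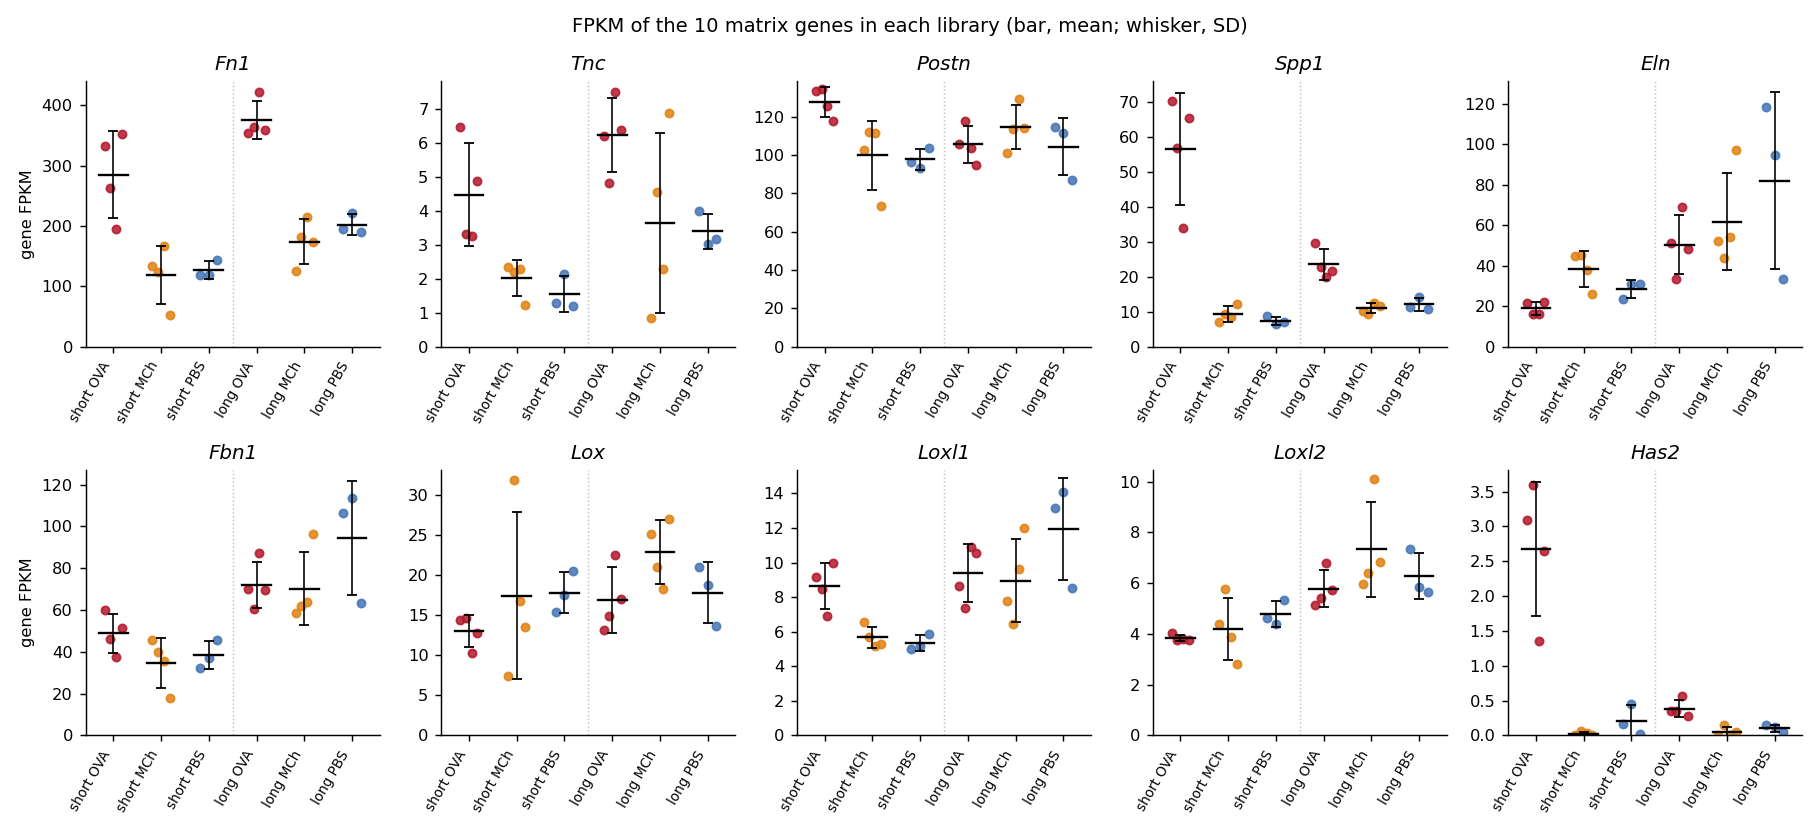
Gene FPKM of each of the 10 genes (one panel each, linear axis from 0) in every library, by group, with the mean as a bar and the SD as a whisker. In short OVA lungs Spp1 lay between 34.0 and 70.2 FPKM and Has2 between 1.36 and 3.59 FPKM, above every library of the other groups in both panels.

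Spp1 (chromosome 5, 104435118 to 104441050, plus strand, GRCm38) encodes osteopontin, a secreted phosphoprotein made by bone cells and by activated macrophages, among others. It stood at 70.2, 56.7, 34.0 and 65.3 FPKM in short OVA lungs, at 6.99, 9.25, 8.37 and 12.3 FPKM in short MCh lungs and at 8.71, 6.46 and 7.02 FPKM in short PBS lungs. Every short OVA library was above every MCh and PBS library, and the lowest of them, library 3, still held more than any long OVA library. The mean was 56.5 ± 16.1 FPKM in short OVA lungs and 7.40 ± 1.18 FPKM in short PBS lungs (SD, n = 4 and 3), a 7.64-fold ratio. The log2 fold change was 2.81 ± 0.22 (SE, adjusted p = 2.66e-08). Leaving out any 1 library kept it between 2.69 and 3.04, with the call made each time.

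Has2 (chromosome 15, 56665627 to 56694539, minus strand) encodes 1 of the enzymes that polymerise hyaluronan. It was at 3.10, 3.59, 1.36 and 2.65 FPKM in short OVA lungs, and at 0.165, 0.448 and 0.0138 FPKM in short PBS lungs. In short MCh lungs it was listed at 0 in libraries 1 and 4 and at 0.0624 and 0.0319 FPKM in libraries 2 and 3. In fragments, the implied depth puts Has2 at 83.7 to 211 in short OVA libraries, at 0 to 4.06 in short MCh libraries and at 0.894 to 27.9 in short PBS libraries. The groups did not overlap, but the PBS level rests on few fragments, so its ratio of means, 12.8-fold, is imprecise. The log2 fold change of OVA over PBS was 2.15 ± 0.22 (adjusted p = 1.10e-06). It was 3.36 with a pseudocount of 0.1 and 1.58 with a pseudocount of 1, with the call made under both.

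Fn1 (chromosome 1, 71585520 to 71653200, minus strand) encodes fibronectin, a large dimeric glycoprotein that cells assemble into fibrils through integrins. Short OVA lungs had 332, 262, 195 and 352 FPKM, short MCh lungs 134, 123, 167 and 52.8 FPKM, and short PBS lungs 118, 119 and 144 FPKM. The lowest OVA library lay above the highest MCh and PBS libraries, and the low value of short MCh library 4 belongs to one of the libraries that stood apart. The means were 285 ± 71.5 FPKM for OVA and 127 ± 14.9 FPKM for PBS, a 2.25-fold ratio, and the log2 fold change was 1.13 ± 0.28 (adjusted p = 0.00584). The call held without any 1 of the 7 libraries, with log2 fold changes of 1.02 to 1.304.

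Tnc (chromosome 4, 63959785 to 64047015, minus strand) encodes tenascin C, a multi-armed glycoprotein that modulates the attachment of cells to fibronectin. It was at 6.47, 3.32, 3.26 and 4.88 FPKM in short OVA lungs, at 2.35, 2.21, 2.29 and 1.23 FPKM in short MCh lungs and at 1.28, 2.15 and 1.21 FPKM in short PBS lungs. OVA libraries were all higher than the rest, by 2.90-fold over PBS in the means. The log2 fold change was 1.26 ± 0.40 (adjusted p = 0.0250), and the call was lost in 4 of 7 fits with 1 library left out, with adjusted p up to 0.107.

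Postn (chromosome 3, 54361109 to 54391037, plus strand), whose product periostin binds collagen and integrins and is known to respond to type II cytokines in airway epithelium, changed little. Its values were 133, 135, 126 and 118 FPKM in short OVA lungs, against 102, 112, 111 and 73.6 FPKM in short MCh lungs and 96.2, 93.4 and 104 FPKM in short PBS lungs. The groups did not overlap, but the ratio of means was only 1.31-fold, and the log2 fold change was 0.38 ± 0.13 (adjusted p = 0.0412). Loxl1 (chromosome 9, 58287738 to 58313186, minus strand), a lysyl oxidase that is targeted to elastic fibres, was at 9.18, 8.50, 6.88 and 10.002 FPKM in short OVA lungs, at 6.55, 5.67, 5.16 and 5.28 FPKM in short MCh lungs and at 5.01, 5.18 and 5.85 FPKM in short PBS lungs. Its ratio of means was 1.62-fold and its log2 fold change 0.64 ± 0.20 (adjusted p = 0.0280). Both calls were fragile: leaving out 1 library ended each of them in 6 of 7 cases, with adjusted p of up to 0.123 for Postn and 0.0876 for Loxl1.

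The other 4 genes gave no call. Eln (chromosome 5, 134702593 to 134747323, minus strand), the soluble precursor of elastin, was at 21.4, 15.9, 16.3 and 21.9 FPKM in short OVA lungs, at 44.8, 45.1, 37.9 and 25.8 FPKM in short MCh lungs and at 23.5, 31.0 and 30.9 FPKM in short PBS lungs. Although the OVA libraries all lay below the PBS libraries, the log2 fold change of −0.59 ± 0.34 (95% interval −1.31 to 0.13) gave an adjusted p of 0.233. Lox, which crosslinks elastin and collagen, and Loxl2, a relative known for its action on basement membrane collagen, had the same order without overlap. Lox ranged from 10.3 to 14.6 FPKM in OVA and from 15.4 to 20.5 FPKM in PBS lungs (log2 −0.44 ± 0.31, adjusted p = 0.336). Loxl2 (chromosome 14, 69609068 to 69695834, plus strand) ranged from 3.74 to 4.04 FPKM in OVA and from 4.38 to 5.34 FPKM in PBS lungs (log2 −0.28 ± 0.20, adjusted p = 0.328). Each of these 3 passed only in the fit of the groups of the comparison alone, with adjusted p of 0.0130 for Eln, 0.0338 for Lox and 0.0485 for Loxl2. That fit called 48.4% of all tested genes. Of all tested genes 29.2% lay lower without overlap in this comparison and 23.2% higher, against 3 and 6 of the 10.

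Fbn1 (chromosome 2, 125300594 to 125507993, minus strand), the main protein of microfibrils, was at 60.1, 46.2, 37.4 and 51.5 FPKM in short OVA lungs and at 32.2, 37.3 and 45.8 FPKM in short PBS lungs, with overlap. Its log2 fold change of 0.34 ± 0.27 (adjusted p = 0.403) depended on the treatment of transcript length. Fold changes in this comparison fell with length: with the genes in 5 equal classes of length, the median was −0.40 in the longest class and 0.27 in the shortest. In single libraries, each gene's deviation from its own mean log2 level over the 22 libraries was ranked against length across 15475 genes. The rank correlations were −0.48 to −0.39 in short OVA libraries and −0.03 to 0.28 in short PBS libraries. In short MCh libraries they ran from −0.65, in library 4, to 0.25. Fold changes of short MCh over short PBS also fell with length, with a rank correlation of −0.45, the same as for OVA over PBS. With each library's trend removed, Fbn1, whose transcript of 9847 bases is the longest of the 10, had a log2 fold change of 0.82 (adjusted p = 0.00787). Fn1 then stood at 1.56, Tnc at 1.63, Spp1 at 2.56, Has2 at 2.30, Loxl1 at 0.67 and Postn at 0.41, and these 6 calls were all made again.

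**Figure D2:**
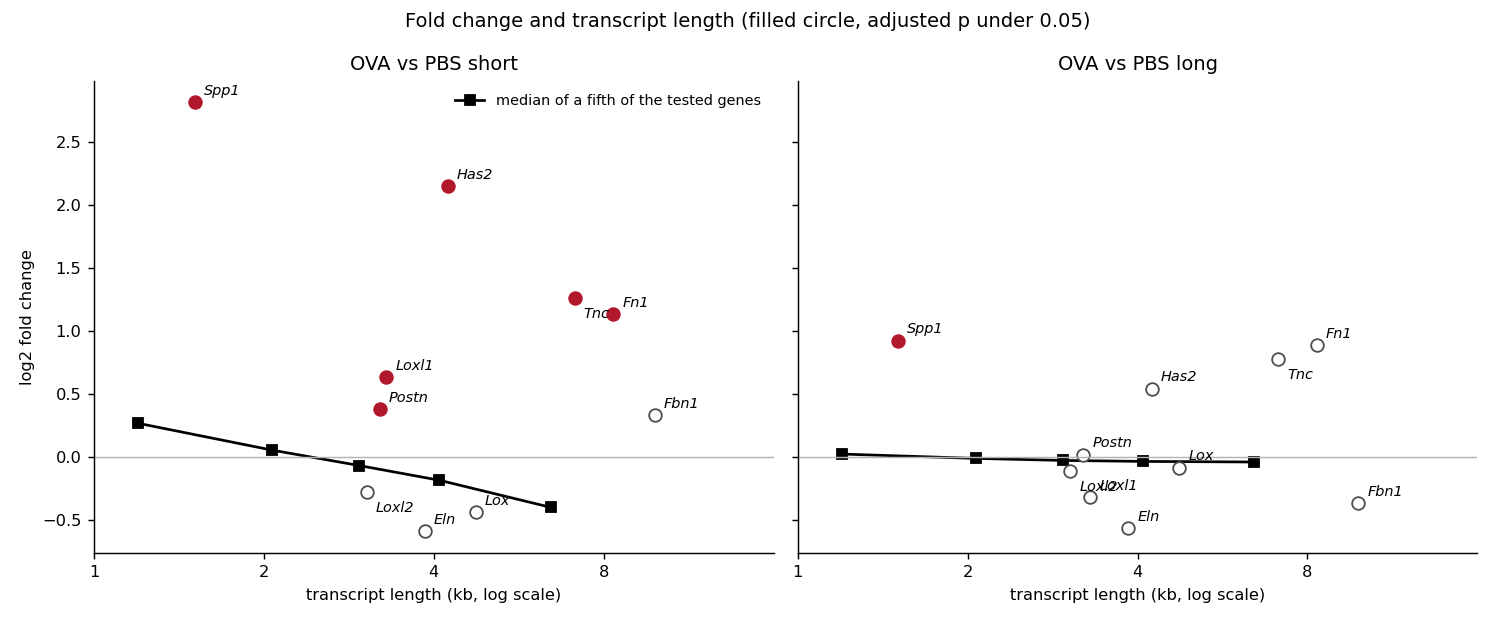
log2 fold change of OVA over PBS (vertical axis) against transcript length in kilobases (horizontal axis, log scale) for the short and the long protocol. Black squares are medians over 5 equal classes of 15475 genes by length and circles are the 10 genes, filled where the adjusted p was under 0.05. In the short protocol the black line falls from 0.27 to −0.40 while Tnc and Fn1, with long transcripts, lie above 1.

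Markers of several cell types also differed in this comparison, some higher and some lower. Among all tested genes 12.4% were higher and 11.7% lower, and the counts of markers are to be read against these shares. Of 10 macrophage markers 7 were higher and none lower in short OVA than in short PBS lungs, among them C1qb by 2.86 ± 0.22 and Adgre1 by 1.53 ± 0.14 on the log2 scale. Their summed level, carried by a few abundant genes, was 3671 to 4345 FPKM in short OVA, 4474 to 8189 FPKM in short MCh and 3993 to 5021 FPKM in short PBS lungs. Of 10 fibroblast markers 4 were lower and none higher, and their sum was 2107 to 2571 FPKM in short OVA, 3064 to 4462 FPKM in short MCh and 3022 to 3312 FPKM in short PBS lungs. Smooth muscle markers were higher in 3 of 6 cases, with sums of 508 to 619 FPKM in short OVA, 468 to 549 FPKM in short MCh and 267 to 340 FPKM in short PBS lungs. Endothelial markers were lower in 3 of 5 cases. Their sums were 938.3 to 1160 FPKM in short OVA, 1058 to 1424 in short MCh and 1310 to 1598 in short PBS lungs. Lung epithelium markers were lower in 2 of 6 cases and mesothelial markers in 1 of 4, which are counts of few genes. None of 5 cardiomyocyte markers passed, with sums of 44.5 to 174.8 FPKM in short OVA and 81.6 to 331.9 FPKM in short PBS lungs. No marker of these lists was at 0 in a whole group. The part of these shifts in the results on the 10 genes was not tested.

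After the long protocol, Spp1 alone of the 10 passed between OVA and PBS lungs, where 1.18% of all tested genes passed and 1.03% were higher. Spp1 was at 29.7, 22.7, 19.9 and 21.6 FPKM in long OVA lungs, at 10.3, 9.31, 12.5 and 11.7 FPKM in long MCh lungs and at 11.4, 14.1 and 10.7 FPKM in long PBS lungs. The OVA libraries were again all higher, by 1.94-fold over PBS in the means. The log2 fold change was 0.92 ± 0.22 (adjusted p = 0.0411), and without 1 library it was 0.81 to 1.04 with the call made in 1 of 7 cases. Of the 10 macrophage markers 5 were higher and none lower in this comparison, with sums of 4692 to 5577 FPKM in long OVA, 3521 to 4545 FPKM in long MCh and 3515 to 3824 FPKM in long PBS lungs, and their part in the Spp1 result was not tested.

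Fn1, Tnc and Has2 were also higher in every long OVA than in every long PBS library, without passing the test. Such separation upward was seen in 9.95% of all tested genes. Fn1 had 354, 364, 422 and 359.8 FPKM in long OVA lungs, 125, 181, 215 and 173 FPKM in long MCh lungs and 195, 222 and 189.7 FPKM in long PBS lungs. Its log2 fold change, 0.89 ± 0.28 (95% interval 0.31 to 1.47), was close to that of the short protocol but had an adjusted p of 0.192. With the 4 libraries of low weight left out, Fn1 passed at 0.00385 with the same fold change, and with the trend with transcript length removed it passed at 0.0153. Tnc was at 6.22, 4.82, 7.497 and 6.38 FPKM in long OVA lungs, at 0.859, 4.57, 2.28 and 6.89 FPKM in long MCh lungs and at 3.99, 3.04 and 3.17 FPKM in long PBS lungs. For Tnc the log2 fold change was 0.78 ± 0.40 (adjusted p = 0.735, or 0.0426 without the 4 libraries). The fit without the 4 libraries called 7.72% of all tested genes in this comparison. Among the 11 alternatives other than leaving out 1 library, Fn1 passed in 4 and Tnc in 3. Neither passed in any of 7 fits with 1 library left out, where adjusted p was 0.278 to 0.584 for Fn1 and at least 0.695 for Tnc. Has2 was at 0.349, 0.350, 0.565 and 0.277 FPKM in long OVA lungs and at 0.143, 0.122 and 0.0476 FPKM in long PBS lungs, which is 15.8 to 29.3 implied fragments against 3.05 to 8.96. The log2 fold change of Has2 was 0.54 ± 0.22 (adjusted p = 0.467).

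The remaining 6 genes overlapped between long OVA and long PBS lungs. Loxl1, which had risen with the short protocol, was at 8.67, 7.34, 10.9 and 10.6 FPKM in long OVA and at 13.2, 14.1 and 8.55 FPKM in long PBS lungs (log2 −0.32 ± 0.20, adjusted p = 0.959). Postn averaged 106 ± 9.43 FPKM in long OVA and 104 ± 14.9 FPKM in long PBS lungs, and the 95% interval of its log2 fold change ran from −0.26 to 0.30. Fbn1 had 69.9, 60.6, 87.1 and 69.6 FPKM in long OVA and 107, 114 and 63.3 FPKM in long PBS lungs. Eln ranged from 33.3 to 69.2 FPKM in long OVA and from 33.6 to 118 FPKM in long PBS lungs, the widest PBS spread among the 10 relative to its mean of 82.1 ± 43.6 FPKM. Lox averaged 16.9 ± 4.10 FPKM in long OVA and 17.8 ± 3.79 FPKM in long PBS lungs, and Loxl2 averaged 5.77 ± 0.727 FPKM in long OVA and 6.28 ± 0.919 FPKM in long PBS lungs.

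The OVA effect itself was compared between the protocols as an interaction, long minus short. Spp1 (−1.89 ± 0.31, adjusted p = 0.00221) and Has2 (−1.60 ± 0.31, adjusted p = 0.00958) had a smaller effect with the long protocol, and 1.88% of all tested genes passed this test, with 1.42% of tested genes lower. The call on Spp1 held in each of 14 fits with 1 library left out, as did that on Has2. Has2 lost it with a pseudocount of 0.1, at −2.12 with an adjusted p of 0.136. For Fn1 the difference was −0.25 ± 0.39, with a 95% interval of −1.07 to 0.58, and for Tnc it was −0.48 ± 0.56 with an interval of −1.65 to 0.68, so neither was shown to differ between protocols. Loxl1 had −0.95 ± 0.29 (adjusted p = 0.105, or 0.0199 without the 4 libraries of low weight). The fit without these 4 libraries called 4811 of the 15682 tested genes. Loxl1 passed in 1 of 14 fits with 1 library left out and in 3 of 11 other alternatives. Across all genes the difference in the OVA effect, long minus short, rose with transcript length (rank correlation 0.47). With the trend removed Spp1 was at −1.68, Has2 at −1.74, and Fbn1 passed at −1.17 with an adjusted p of 0.0437.

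**Figure D3:**
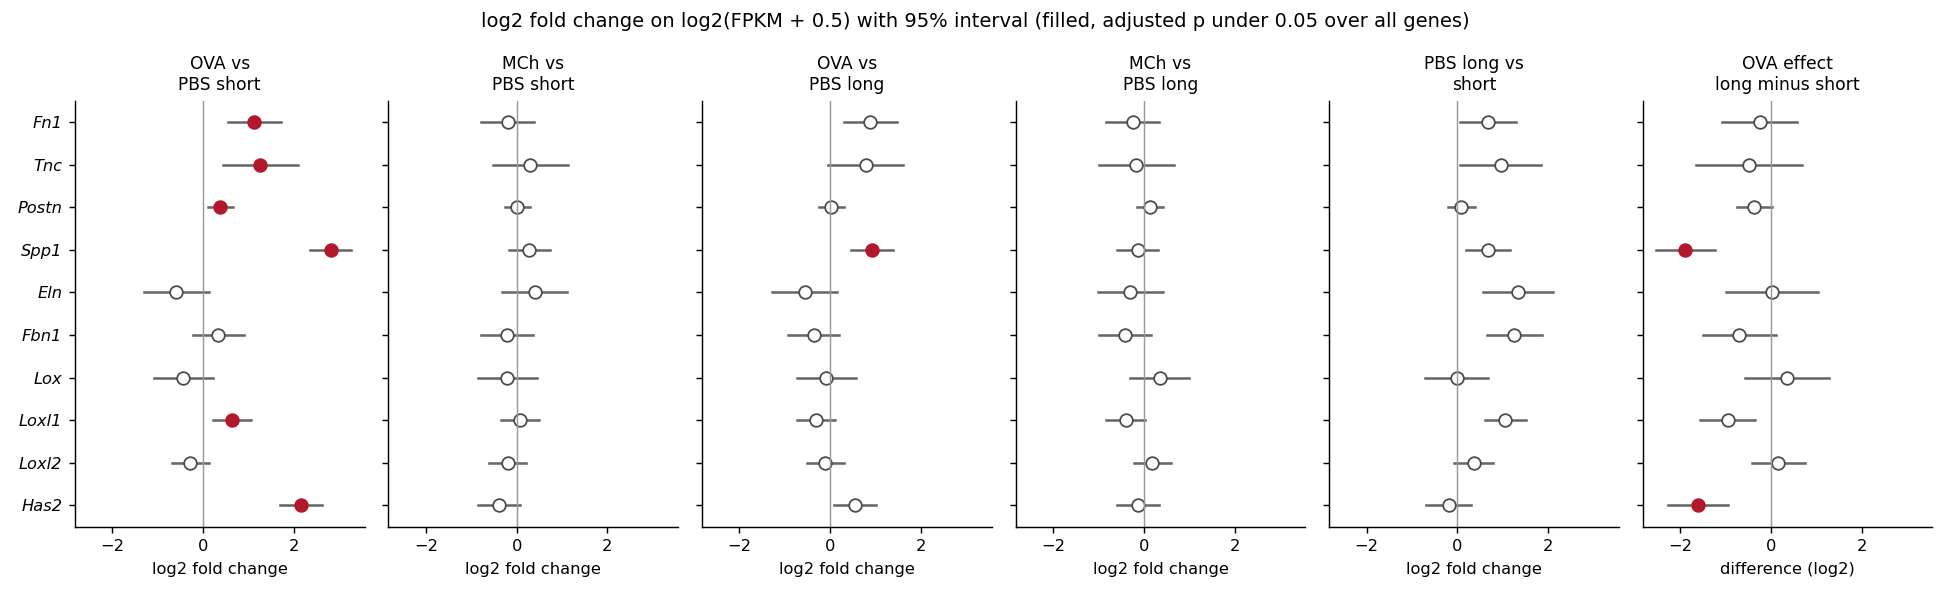
log2 fold change on the log2(FPKM + 0.5) scale (horizontal axis) with its 95% interval for each of the 10 genes (rows) in 5 comparisons and, at the right, the difference between the long and the short OVA effect. Filled circles had an adjusted p under 0.05 over all tested genes. The short OVA panel holds 6 filled circles, the long OVA panel 1 and both MCh panels none.

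Methacholine gave no call in either protocol. With limma, 0 of 10 genes passed between MCh and PBS lungs in the short protocol and 0 of 10 in the long protocol, and none reached an unadjusted p under 0.05 in either. All 10 overlapped between the groups in both, where among all tested genes 3.24% lay higher and 5.52% lower without overlap in the short protocol, and 2.6% higher and 10.5% lower in the long protocol. Few genes passed at all here, 0.00638% of those tested in the short and 0.0638% in the long protocol, and the libraries of low weight are all MCh libraries. The 95% interval of the short log2 fold change ran from −0.17 to 0.74 for Spp1, from −0.78 to 0.38 for Fn1 and from −0.53 to 1.13 for Tnc. With the long protocol the intervals were −0.59 to 0.32 for Spp1, −0.82 to 0.34 for Fn1 and −0.99 to 0.66 for Tnc. Has2 was listed at 0 in long MCh libraries a and c, which are of low weight, and at 0.156 and 0.0516 FPKM in b and d.

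Between OVA and MCh lungs directly, 5 of the 10 genes were higher and 1 lower in the short protocol, where 15.2% of all tested genes passed, 9.37% higher and 5.82% lower. This comparison shares its OVA libraries with the one against PBS. The higher ones were Spp1 (log2 2.53 ± 0.20, adjusted p = 3.35e-08), Has2 (2.54 ± 0.21, adjusted p = 3.72e-08, on a scale where the added 0.5 sets the size because 2 MCh libraries are listed at 0), Fn1 (1.33 ± 0.26, adjusted p = 0.00106), Loxl1 (0.56 ± 0.19, adjusted p = 0.0489) and Postn (0.37 ± 0.12, adjusted p = 0.0461). Eln was lower in OVA than in MCh lungs by a log2 of −0.99 ± 0.32 (adjusted p = 0.0408). With 1 library left out, Eln was called in only 1 of 8 fits, and Loxl1 and Postn in 2 of 8 each. The adjusted p in these fits reached 0.119 for Eln, 0.135 for Loxl1 and 0.122 for Postn. In the long protocol Fn1 (1.13 ± 0.26, adjusted p = 0.0121) and Spp1 (1.06 ± 0.20, adjusted p = 0.00296) were higher in OVA than in MCh lungs, where 6.06% of all tested genes passed, 4.75% higher, and the median of all genes was 0.14. Has2 missed the threshold there (0.68 ± 0.21, adjusted p = 0.0541).

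The 2 PBS groups differ in protocol length and hence in the animals' age at the end, and these cannot be told apart. Levels of 7 of the 10 genes were higher in every long than in every short PBS library, a separation seen in 18.9% of all tested genes, but with limma 0 of 10 passed, with 6 at an unadjusted p under 0.05, and 0.166% of all tested genes passed. Eln was at 118, 94.4 and 33.6 FPKM in long PBS and at 23.5, 31.0 and 30.9 FPKM in short PBS lungs (log2 1.34 ± 0.37, adjusted p = 0.221). Fbn1 was at 107, 114 and 63.3 FPKM in long PBS and at 32.2, 37.3 and 45.8 FPKM in short PBS lungs (1.26 ± 0.29, adjusted p = 0.0924). Loxl1, at 13.2, 14.1 and 8.55 FPKM in long PBS and 5.01, 5.18 and 5.85 FPKM in short PBS lungs, came closest to a call (1.06 ± 0.22, adjusted p = 0.0518). Long PBS library 3 was the lowest of its group in all 3 genes, so leaving it out had to raise their fold changes. Its array weight, 1.86, was not low. Without it the adjusted p was 0.0130 for Eln, 0.0409 for Fbn1 and 0.0176 for Loxl1, in a fit that called 0.217% of all tested genes. Each of the 3 passed in only 1 of 6 fits with 1 library left out. In the fits where they did not pass, adjusted p reached 0.621 for Fbn1 and 0.440 for Loxl1, and was higher still for Eln. Without the 4 MCh libraries of low weight, which take part only in the estimate of spread, 5 of the 10 passed, namely Eln, Fbn1, Fn1, Loxl1 and Tnc, beside 7.73% of all tested genes in that fit. Of 4 mesothelial markers 1 was higher and none lower. Their sums were 256.2 to 325.2 FPKM in long PBS and 98.3 to 198.2 FPKM in short PBS lungs. None of 5 cardiomyocyte markers passed, with sums of 23.7 to 164.2 FPKM in long PBS and 81.6 to 331.9 FPKM in short PBS lungs. Fold changes across genes rose with transcript length (rank correlation 0.28). Deviations of genes from their own means over the 22 libraries correlated with length by 0.36 to 0.42 in long PBS and −0.03 to 0.28 in short PBS libraries. The part of these shifts in the results on the 10 genes was not tested.

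Levels were compared between genes on the sums of transcript FPKM, because the deposited gene values are scaled differently from gene to gene. Postn had the highest group mean in 5 of the 6 groups, from 136.7 ± 7.53 FPKM in short PBS lungs to 160 ± 16.2 FPKM in long MCh lungs. In short OVA lungs Spp1 stood above it, at 223 ± 63.2 FPKM beside 179 ± 10.8 FPKM for Postn, with libraries that overlapped. Eln, Fn1 and Spp1 changed places between groups. In long OVA lungs Fn1 was at 96.8 ± 8.09, Spp1 at 92.5 ± 17.0 and Eln at 60.1 ± 17.6 FPKM, and Fn1 and Spp1 overlapped. In short PBS lungs Eln (34.0 ± 5.11 FPKM), Fn1 (32.7 ± 3.74), Spp1 (29.1 ± 4.61) and Lox (27.5 ± 3.95) each overlapped with the next in order. Lox was in place 5 in all 6 groups, followed by Loxl1, Fbn1, Loxl2, Tnc and Has2 in the same order of means in each, though libraries of neighbours in this order overlapped in some groups, as those of Loxl2 and Tnc did in both OVA groups.

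Fibronectin is made in forms that differ by spliced exons. The form secreted into plasma by the liver lacks exons EIIIB and EIIIA (extra domains B and A), and fibronectin made within tissues contains them in part. Of the 7 annotated Fn1 transcripts in the table, 4 hold EIIIA and 1 also holds EIIIB. Both exons are shown since the isoform shares that follow turn on them. They lie on the minus strand of chromosome 1 in GRCm38, EIIIB at chr1:71613763-71614035 and EIIIA at chr1:71603660-71603929, and their letters are those of GENCODE M21, 5′ to 3′ in the transcript, with the first and last 2 bases of each exon in capitals.
EIIIB: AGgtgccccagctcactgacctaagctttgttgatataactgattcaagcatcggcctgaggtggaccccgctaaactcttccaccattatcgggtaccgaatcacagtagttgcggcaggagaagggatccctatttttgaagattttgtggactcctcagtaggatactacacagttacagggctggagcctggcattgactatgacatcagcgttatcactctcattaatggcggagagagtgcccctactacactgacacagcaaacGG
EIIIA: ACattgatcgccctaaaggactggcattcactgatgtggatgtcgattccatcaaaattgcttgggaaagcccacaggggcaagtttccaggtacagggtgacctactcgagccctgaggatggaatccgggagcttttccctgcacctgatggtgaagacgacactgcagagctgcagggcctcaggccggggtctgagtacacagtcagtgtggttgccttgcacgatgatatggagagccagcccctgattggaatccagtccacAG

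The share of EIIIA transcripts in the summed Fn1 transcript FPKM was 27.1%, 29.3%, 28.0% and 38.6% in short OVA lungs and 29.8%, 28.6% and 33.9% in short PBS lungs, with means of 30.8% ± 5.29 and 30.8% ± 2.83 (SD, n = 4 and 3). The groups overlapped, and their means differed by 0.013 percentage points (two-sided exact permutation p = 0.971). In long OVA lungs the share was 36.7% ± 7.65 and in long PBS lungs 31.5% ± 0.599 (exact permutation p = 0.4). With 4 against 3 libraries the smallest p this test can give is 0.0571. EIIIB transcripts made up 0.694% ± 0.726 in short OVA and 0.0273% ± 0.0331 in short PBS lungs (exact permutation p = 0.114). The short OVA share was 0.0885%, 0.0423%, 1.305% and 1.34% in libraries 1 to 4. In the long protocol the order of means was the opposite, 0.0355% ± 0.0296 in OVA and 0.845% ± 1.45 in PBS lungs (exact permutation p = 0.857), with 2.52% in long PBS library 2. The share with the smallest p was that of the leading Fn1 transcript, which lacks both exons. It was 24.2%, 31.9%, 26.7% and 24.5% in long OVA lungs and 40.3%, 34.6% and 35.5% in long PBS lungs, without overlap, with means of 26.8% ± 3.57 and 36.8% ± 3.06 (exact permutation p = 0.0571, adjusted value 0.914). In the short protocol it was 37.7% ± 3.76 in OVA and 34.9% ± 5.15 in PBS lungs (exact permutation p = 0.457). Over the 24 shares compared the lowest Benjamini-Hochberg adjusted value was 0.914. At the level of single transcripts, with 9.28% of 26492 tested transcripts called between OVA and PBS in the short protocol, the FPKM of that transcript passed (log2 1.22 ± 0.22, adjusted p = 0.00102). Reads that do not span an alternative exon cannot be tied to 1 transcript, so shares depend on the estimate made upstream, whose program is not given in the sources used here.

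**Figure D4:**
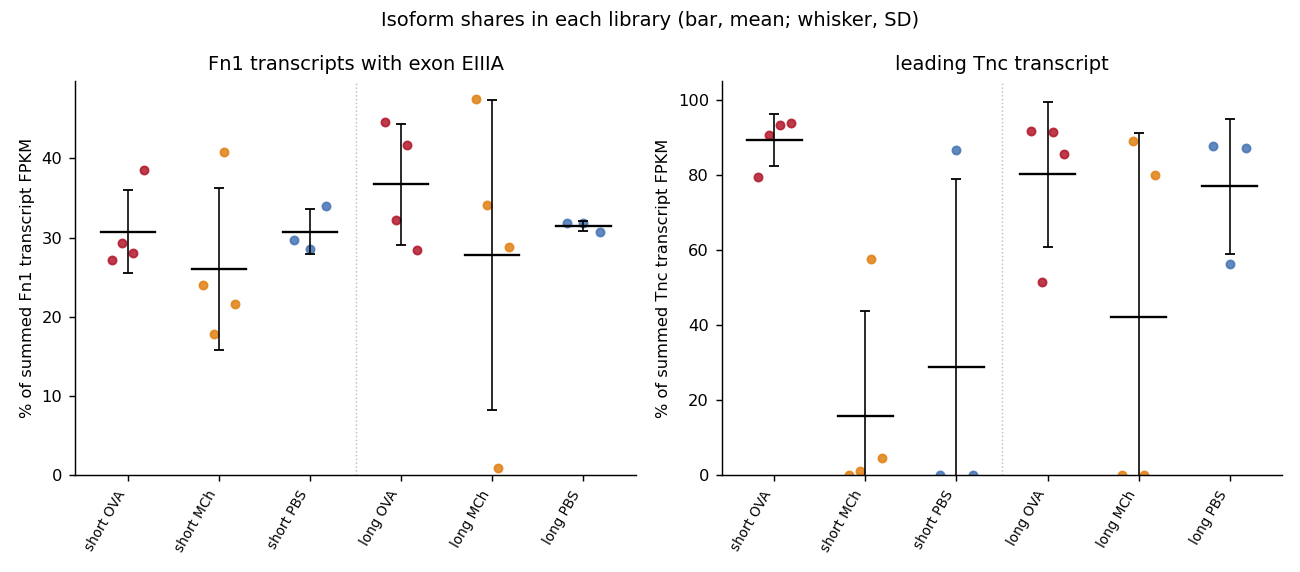
Share of EIIIA-containing transcripts in the summed Fn1 transcript FPKM (left) and of the leading Tnc transcript in the summed Tnc transcript FPKM (right), in % of the gene's sum, for each library by group, with mean (bar) and SD (whisker). The Fn1 shares of short OVA and short PBS lungs overlap around 30.8%, and the Tnc share is at 4.62% or less in 7 libraries and at 51.6% or more in the other 15.

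The leading Tnc transcript took 79.3%, 90.7%, 93.3% and 93.9% of the Tnc sum in short OVA lungs and 0%, 86.5% and 0% in short PBS lungs. In short MCh lungs it took 0%, 1.28%, 57.6% and 4.62%. In the 4 libraries of low weight it was at 4.62% or less. The difference between short OVA and short PBS lungs had an exact permutation p of 0.114. On the sum over Tnc transcripts the log2 fold change of short OVA over short PBS was 1.28 (adjusted p = 0.0228), near the 1.26 of the gene value.

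Promoters of Spp1, Tnc, Postn and Fbn1 were taken from the start sites in RefSeq's table for GRCm38.p6. The 250 bases before a single start site are shown for Spp1, Tnc and Postn, those that passed between OVA and PBS in the short protocol. Each is read 5′ to 3′ in the direction of the gene. Spp1, Tnc and Postn each had another start site in that table, whose window is not shown. Spp1 is at chr5:104434861-104435110 on the plus strand, Tnc at chr4:64047016-64047265 on the minus strand and Postn at chr3:54360857-54361106 on the plus strand. Capitals mark matches on either strand to the motifs searched, which were the TATA box (TATAAA), AP-1 (TGANTCA), STAT6 (TTC and GAA with 4 bases of any kind between them) and RUNX (TGTGGT).
Spp1: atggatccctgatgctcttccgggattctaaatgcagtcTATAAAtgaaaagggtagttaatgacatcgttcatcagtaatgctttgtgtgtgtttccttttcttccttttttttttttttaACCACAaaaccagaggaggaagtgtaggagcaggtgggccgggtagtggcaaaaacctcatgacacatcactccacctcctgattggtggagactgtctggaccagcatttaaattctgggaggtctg
Tnc: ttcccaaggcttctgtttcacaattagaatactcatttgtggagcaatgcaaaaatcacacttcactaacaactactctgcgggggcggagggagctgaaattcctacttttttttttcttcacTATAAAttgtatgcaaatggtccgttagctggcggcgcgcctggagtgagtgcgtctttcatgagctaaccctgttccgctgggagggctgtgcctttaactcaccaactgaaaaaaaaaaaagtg
Postn: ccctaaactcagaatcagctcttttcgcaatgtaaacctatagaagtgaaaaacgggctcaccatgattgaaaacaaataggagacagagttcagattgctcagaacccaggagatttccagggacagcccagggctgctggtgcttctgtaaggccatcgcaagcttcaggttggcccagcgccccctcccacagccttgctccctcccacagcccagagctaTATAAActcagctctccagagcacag

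In the windows shown, Postn had TATAAA 26 to 21 bases before the start, Tnc 126 to 121 bases before and Spp1 211 to 206 bases before. Spp1 also had the RUNX letters, as accaca on this strand, 128 to 123 bases before the start. No AP-1 or STAT6 letters were found in these windows. Seen from its other start site, Tnc had the same TATAAA 205 to 200 bases before. The windows at the other start sites of Postn and Spp1 held none of the motifs. Among 32851 promoters of the table, 12.37% held the TATA letters, 14.05% the RUNX letters, 6.75% the AP-1 letters and 5.85% the STAT6 letters. A match describes the letters and is no measurement of binding.

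Other matrix genes were counted in lists of related function, again for OVA against PBS in the short protocol. Among all tested genes 12.4% were higher and 11.7% lower there, 24.2% in all, and the counts in each list are to be read against these shares. Of 15 genes of elastic fibre assembly 3 rose and 3 fell, with a list median of −0.10 (log2). Emilin2 (log2 1.34 ± 0.16, adjusted p = 7.99e-06) and Emilin1 (0.87 ± 0.18, adjusted p = 0.00150), glycoproteins at the surface of elastic fibres, rose. Ltbp4 (−1.75 ± 0.26, adjusted p = 8.84e-05) and Ltbp2 (−1.22 ± 0.25, adjusted p = 0.00137), which bind microfibrils, fell. Of 15 genes that crosslink or modify collagen 2 rose and 4 fell, with a median of −0.08. The lysyl oxidase relative Loxl4 rose by 1.43 ± 0.33, and the lysyl hydroxylase Plod2 (−0.76 ± 0.18), the prolyl hydroxylase subunit P4ha2 (−0.69 ± 0.18) and Pcolce2 (−0.61 ± 0.16), an enhancer of procollagen cleavage, fell.

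Of 15 other matrix glycoproteins 2 rose and 4 fell, with a list median of −0.40. Thbs1 (thrombospondin 1) averaged 95.9 ± 22.5 FPKM in short OVA and 22.2 ± 3.77 FPKM in short PBS lungs. It rose by 2.06 ± 0.29 and Tgfbi by 0.82 ± 0.15, while the basement membrane protein Nid2 (−1.27 ± 0.28) and Tnxb (−1.45 ± 0.35), a relative of Tnc, fell. Thbs1 also passed in the long protocol (1.46 ± 0.29, adjusted p = 0.0105), where no other gene of the 5 lists did. Of 15 genes of hyaluronan synthesis, turnover and binding 4 rose and 1 fell, with a median of 0.17. Besides Has2 itself, which is not in that list, the hyaluronan-binding proteoglycan Vcan (versican) rose by 1.87 ± 0.25, Tnfaip6, which transfers protein chains onto hyaluronan, by 1.67 ± 0.25, and Hmmr, a hyaluronan receptor also known from the mitotic spindle, by 2.24 ± 0.35. Cemip2 fell by a log2 of −0.97 ± 0.18. The median of 12 integrin and syndecan receptors was −0.12. Of these, at a share near that of all genes, 1 rose (Sdc4, 0.57 ± 0.11) and 2 fell (Itga8, −1.05 ± 0.17, and Itgb5, −0.63 ± 0.10), and Itga9, at −0.54 ± 0.22, had an adjusted p of 0.0817. With limma, 0 genes of the 5 lists passed between MCh and PBS lungs in either protocol, with 1 to 5 a list at an unadjusted p under 0.05 in the short and 0 to 5 in the long protocol.

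**Figure D5:**
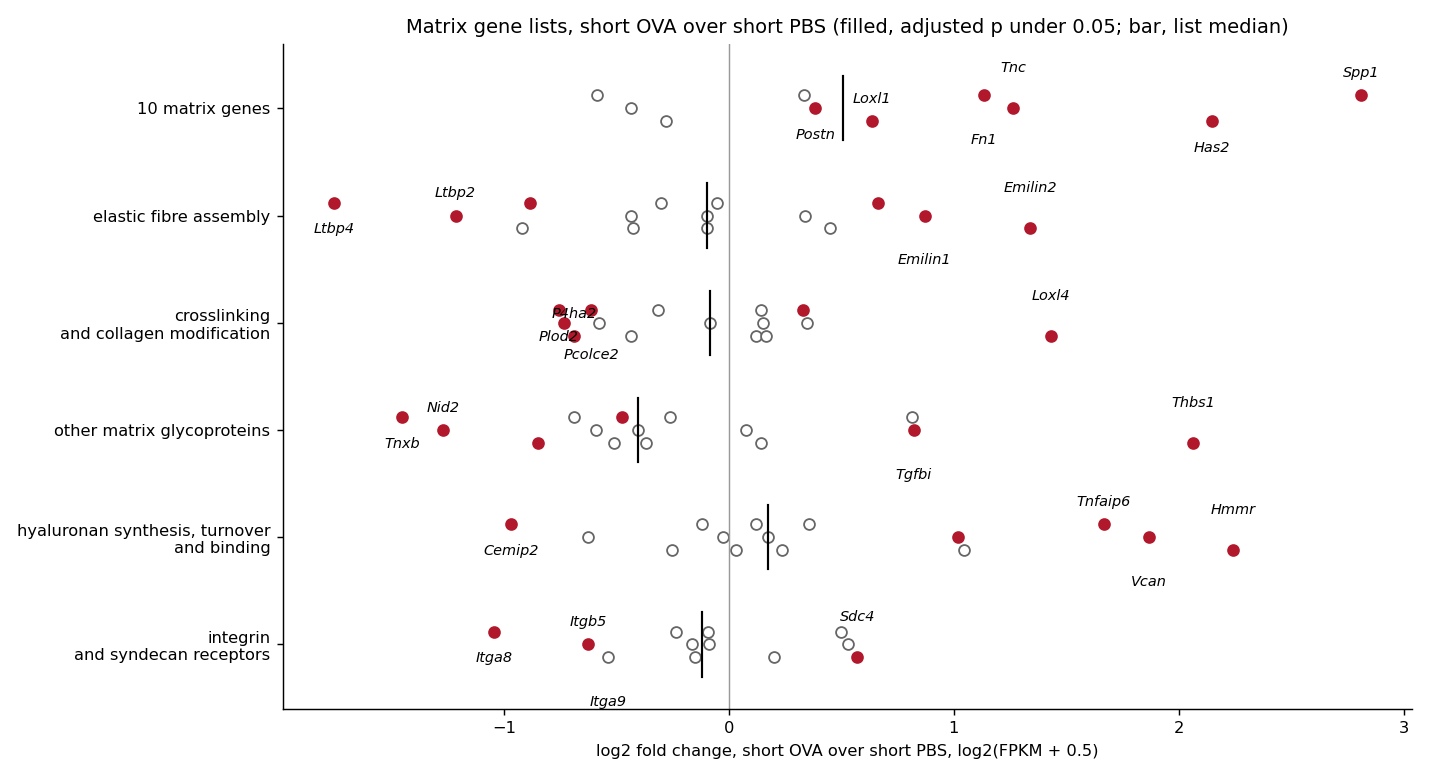
log2 fold change of short OVA over short PBS lungs (horizontal axis) for the 10 genes and for 5 lists of related matrix genes (rows), 1 circle per gene, filled where the adjusted p was under 0.05, with the list median as a bar. The 10 genes have a median of 0.51 and the other matrix glycoproteins one of −0.40, and each of the 5 lists holds filled circles on both sides of 0.

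Over the 22 libraries, the genes most like each member were ranked by Pearson correlation of log2(FPKM + 0.5) among the 12763 genes that averaged 1 FPKM or more. These libraries share groups, so the values describe the whole pattern and carry no test. Spp1 was closest to P2ry6 (0.97), Adgre1 (0.96) and Lilr4b (0.96), genes known from macrophages and other myeloid cells. Has2 was closest to Rnf19b (0.97), Fgf23 (0.97) and the cytokine gene Il13 (0.96). Fn1 was closest to Col6a2 (0.93), Cxadr and Tnip1, and Tnc to Sqle (0.86), Mmp14 and Gas7. Fbn1 was closest to Col6a3 (0.93) and Col1a1 (0.92), and Loxl1 to Col1a1 (0.90) and Col5a2 (0.85), all collagen genes. Loxl2 was closest to Bmp1 (0.95), a procollagen protease. Eln was closest to St6galnac3 (0.90), Lox to Slc39a3 (0.80) and Postn to C7 (0.76), the lowest leading value of the 10. Among the members, Spp1 and Has2 had 0.89 with each other, Fbn1 and Loxl1 0.87, and Fn1 and Tnc 0.80, while Eln and Has2 had −0.59.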

How the data were processed

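Stranded total RNA libraries were made from lung RNA purified on RNeasy columns with DNase I, per the labels' protocols. The deposited FPKM values cover 20938 genes and 36844 transcripts. The notes name Trim Galore, STAR, DESeq2 and mm10, per the submitters' processing notes. The program behind the FPKM is not given in the sources used here. For genes with 1 transcript, gene FPKM was a fixed gene-specific multiple (0.0419 to 14.8) of transcript FPKM, so gene values compare libraries, not genes. Depth was inferred from the steps of low values.

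Genes reaching 0.1 FPKM in 3 libraries or more were fitted as log2(FPKM + 0.5), which understates folds of low genes, with limma 3.58.1 (R 4.3.3, intensity trend, all 6 groups, two-sided). Benjamini-Hochberg adjustment ran over every tested gene in each of 8 contrasts. Errors are SE for fold changes and SD for levels. The steps were tested on simulated data. Isoform shares had exact permutation tests. The labels give no batch, and the titles number the libraries as biological replicates without further detail. The p-values of the fit set differences between groups against the spread between these libraries.

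Alternatives covered the pseudocount, the filter, scaling, array weights, libraries of low weight, transcript length, transcript sums, the samples fitted, a replicate block and single libraries. Beside the members, the text names the 4 genes of each list with the smallest p for OVA over PBS in the short protocol, the genes most correlated with a member, and macrophage markers as examples picked after their values were seen. The members and lists were chosen with earlier results of these data known. Positions are from GENCODE M21 on GRCm38.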

Additional observations from a re-analysis of the deposited data

Results flagged for a closer look

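Among 40 groups of 4 libraries tested for 1 library far from the other 3, 3 were found, where chance gives about 5% of groups. Fn1 in long OVA library c, at 422 FPKM, lay above the other long OVA libraries, which had 354 to 364 FPKM. Tnc in short MCh library 4, at 1.23 FPKM, lay below the other 3 short MCh libraries, which had 2.21 to 2.35 FPKM, and that library is one of low array weight. Fbn1 in long MCh library d, at 96.2 FPKM, lay above the other 3 long MCh libraries, which had 58.8 to 63.9 FPKM.

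The OVA effect differed between the protocols, by a test of the interaction, for 2 of the 10 genes. The difference, long minus short, was −1.89 (log2) for Spp1 and −1.60 (log2) for Has2.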

How the results depend on the processing

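Of the fold changes of single genes under all alternatives, 1456 kept their direction where called and their side of the threshold, 52 gained a call, 52 lost one and 0 called ones reversed. The 6 calls between OVA and PBS in the short protocol were each made again under all 12 other alternatives, and the count was 3 to 5 with 1 library left out, with 3 without short PBS library 1, short PBS library 3 or short OVA library 1. In the long protocol the 1 call became 0 with median-of-ratios or quantile scaling, 3 with array weights or without the 4 libraries of low weight, 2 with the length trend removed, 4 in the fit of the contrast alone, and 0 or 1 with 1 library left out. OVA against MCh gave 3 to 4 in the short and 2 to 4 in the long protocol with 1 library left out. Long against short PBS gave 1 with the filter at FPKM 1, with sums of transcripts or in the fit alone, 2 with quantile scaling, 6 with array weights, 5 without the 4 libraries, and 0 to 3 with 1 library left out. The interaction gave 1 with a pseudocount of 0.1, 4 with array weights or without the 4 libraries, and 2 to 3 with 1 library left out. Of member transcripts 6 passed between OVA and PBS in the short protocol, 11 with array weights, 12 without the 4 libraries and 5 to 7 with 1 library left out. MCh against PBS gave 0 members throughout.

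Over all genes, OVA against PBS in the short protocol called 3790, but 7994 with array weights, 8468 without the 4 libraries, 7589 in the fit of the contrast alone and 2009 to 3275 with 1 library left out. In the long protocol it called 185, but 2047, 1211, 1022 and 86 to 197. The interaction called 295, but 193 with a pseudocount of 0.1, 4893, 4811 and 4513 under the same 3 alternatives, and 132 to 311. Long against short PBS called 26, but 49 with quantile scaling, 1655, 1213, 168 and 0 to 34. OVA against MCh called 2381 in the short protocol, but 8984 with array weights, 7736 without the 4 libraries and 1556 to 4835 with 1 left out; in the long protocol it called 951, but 2150 with array weights, 1680 with the length trend removed, 292 alone and 413 to 2403. MCh against PBS called 1 in the short protocol, with 0 to 340 under the alternatives, and 10 in the long protocol, with 0 to 781. The cause was not tested.

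No pairing by replicate number was seen among the 14 numbered libraries, though groups of 3 or 4 libraries cannot exclude it. Deviations of libraries of the same number correlated by −0.27 to 0.36, with a median of −0.03 over 19 pairs. Those of different numbers correlated by −0.33 to 0.41, with a median of 0.006 over 54 pairs. With the replicate number as a block, OVA against PBS in the short protocol called 3623 genes and 6 members, beside 4774 and 5 for the same libraries without the block. The block gave 2932 beside 3046 genes and 7 beside 6 members for OVA against MCh, 0 beside 5 genes for MCh against PBS, and 5 beside 19 genes and 0 beside 1 members for long against short PBS. Depth limits Has2 most, which outside short OVA lungs rests on at most 29.3 implied fragments a library.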

Other observations

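The table lists 5 Tnc transcripts, and 1 of them was at 0 in all 22 libraries. The transcript that led in short OVA lungs was listed at 0 in short PBS libraries 1 and 3, where another Tnc transcript held 0.638 and 0.566 FPKM, while in short PBS library 2 that other transcript was listed at 0 and the leading one held 1.18 FPKM. The ratio of the gene value to the transcript sum ran from 1.55 to 1.97 for Tnc over the libraries, and from 3.82 to 3.91 for Fn1.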
